A study of Mus musculus with 4 samples.

Results

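The 8 genes described here encode signals by which a tumor draws in and holds T cells. They are the chemokine genes Cxcl9, Cxcl10, Cxcl11, Ccl5, Cxcl16 and Cx3cl1 and the adhesion ligand genes Icam1 and Vcam1, chosen as a fixed list of symbols out of 53379 annotated genes. All 8 were found in the deposited counts, and 7 of them passed the filter on low counts and were tested among 13792 genes. Tumor cells were sorted from MC38 tumors that had been labelled responder (2 libraries) or non-responder (2 libraries), and bulk RNA-seq was run on their polyadenylated RNA. MC38 is a colon adenocarcinoma line of C57BL/6 mice, here carrying GFP. It was grown under the skin of C57BL/6 mice from an inoculum of 50000 cells. Every mouse in both groups had received anti-PD-1, an antibody against an inhibitory receptor of T cells, at a dose of 100 µg that was held below the optimum and given on day 12, day 15, day 18 and day 22. The labels give neither the age of the mice nor the way response was scored, and they leave unsaid whether replicate libraries are from different mice. The p-values therefore speak only of variation among these libraries, and this may be technical.

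CXCL9, CXCL10 and CXCL11 are secreted chemokines that share the receptor CXCR3 on activated T cells and NK cells, and their genes are classical targets of interferon gamma. CCL5 is made by activated T cells as well as by epithelial and myeloid cells. CXCL16 and CX3CL1 (fractalkine) are unusual chemokines that are made as membrane-anchored proteins, serve there as adhesion molecules and are shed by the proteases ADAM10 and ADAM17, and their receptors are CXCR6 and CX3CR1. ICAM1 binds the leukocyte integrin LFA-1 and VCAM1 binds the integrin VLA-4, and NF-kB drives both genes in many cells.

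On the mm10 build the 3 CXCR3 ligand genes lie together on chromosome 5, all on the minus strand. Cxcl9 (ENSMUSG00000029417) spans 92321347 to 92328079, Cxcl10 (ENSMUSG00000034855) spans 92346638 to 92348889 and Cxcl11 (ENSMUSG00000060183) spans 92359544 to 92365485, a stretch of 44139 bases in all. Ccl5 (ENSMUSG00000035042) and Cxcl16 (ENSMUSG00000018920) are on chromosome 11, from 83525778 to 83530518 and from 70453983 to 70459984. Cx3cl1 (ENSMUSG00000031778) is on chromosome 8 from 94772009 to 94782427, Icam1 (ENSMUSG00000037405) on chromosome 9 from 21015985 to 21028817, and Vcam1 (ENSMUSG00000027962) on chromosome 3 from 116109949 to 116129688. Reads were counted over the annotated exons of each gene.

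The RefSeq promoter table (build GRCm38.p6) held 4 of the 8 genes. The 250 bases before the start are shown for Cxcl10 and Cxcl9, neighbours with 1 receptor and unlike patterns over the libraries, and for Icam1, the scarcer adhesion ligand gene. They were read for 3 motifs on both strands, the interferon-stimulated response element ISRE (GAAA and GAAA set 2 bases apart), the STAT site GAS (TTCNNNGAA) and the NF-kB consensus, and matches are in capitals. In the same window, 2.98% of 32851 RefSeq promoters held the ISRE letters, 7.02% the GAS letters and 3.9% the NF-kB consensus.
Cxcl10, chr5:92348890-92349139, minus strand: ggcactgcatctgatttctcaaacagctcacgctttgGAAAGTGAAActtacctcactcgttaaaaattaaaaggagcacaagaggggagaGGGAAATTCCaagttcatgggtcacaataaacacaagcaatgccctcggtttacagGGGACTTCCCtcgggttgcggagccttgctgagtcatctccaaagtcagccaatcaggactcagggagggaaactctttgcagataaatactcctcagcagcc
Cxcl9, chr5:92328080-92328329, minus strand: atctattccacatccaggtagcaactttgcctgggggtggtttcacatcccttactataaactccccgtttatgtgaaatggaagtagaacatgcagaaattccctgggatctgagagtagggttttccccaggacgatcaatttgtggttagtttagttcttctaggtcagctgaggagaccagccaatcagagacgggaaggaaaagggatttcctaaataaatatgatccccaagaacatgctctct
Icam1, chr9:21015690-21015939, plus strand: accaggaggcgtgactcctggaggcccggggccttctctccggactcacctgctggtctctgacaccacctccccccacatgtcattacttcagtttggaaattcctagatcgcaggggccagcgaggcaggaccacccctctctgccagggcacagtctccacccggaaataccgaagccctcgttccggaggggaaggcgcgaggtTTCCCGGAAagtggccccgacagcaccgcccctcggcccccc

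The Cxcl10 window held 1 ISRE match, 213 to 204 bases before the start, and 2 matches to the NF-kB consensus, at 159 to 150 and at 103 to 94 bases before it, none of which overlap. The Icam1 window held 1 GAS match, 42 to 34 bases before the RefSeq start, which lies upstream of the Icam1 gene start given above. The Cxcl9 window held no match to these letters. Only exact letters were counted, so a window without a match may still hold a working site that departs from them.

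The libraries held 18447041 to 21754063 counts. Of 8 markers of colon epithelium, 1 (Cdh1) passed the filter, Krt20 had no read and the summed CPM (counts scaled to 1000000 per library) of the list was 0.72 to 3.23, so the sorted cells carried little of an epithelial transcript set. Leukocyte transcripts were scarce and uneven. The 8 pan-leukocyte markers, among them Ptprc, which encodes CD45, summed to 2.28 and 39.2 CPM in responder replicates 1 and 2, against 38.2 and 115 CPM in non-responder replicates 1 and 2. The 10 T and NK cell markers summed to 0.50 and 1.52 CPM in the responder libraries and to 1.06 and 3.63 CPM in the non-responder libraries. In bulk samples, fewer cells of a type and less RNA per cell cannot be told apart.

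The 8 genes ran from very abundant to barely detected. Per length, in TPM (counts divided by exon length and scaled to 1000000 per library), Cxcl10 was the highest at 639 ± 16.8 in responder and 404 ± 213 in non-responder libraries, above 99.3% of all genes with a read. Vcam1 followed at 167 ± 25.4 and 149 ± 39.7 TPM, then Cxcl9 at 73.1 ± 29.8 and 95.2 ± 108 TPM and Ccl5 at 72.3 ± 2.04 and 78.4 ± 51.1 TPM (all means ± SD, n = 2 per group, responder before non-responder). Cxcl9 and Ccl5 did not differ beyond their spread, nor did Vcam1 and Cxcl9 in the non-responder libraries. Far below them, Cxcl16 had 3.11 ± 4.05 and 10.6 ± 6.70 TPM, Icam1 1.07 ± 0.14 and 2.51 ± 1.95 TPM and Cxcl11 2.03 ± 0.46 and 1.45 ± 0.72 TPM. Cxcl16 and Icam1 overlapped within their spreads in both groups, as did Icam1 and Cxcl11 in the non-responder libraries. Cx3cl1 was last, at 0.072 ± 0.035 and 0.35 ± 0.13 TPM.

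**Figure D1:**
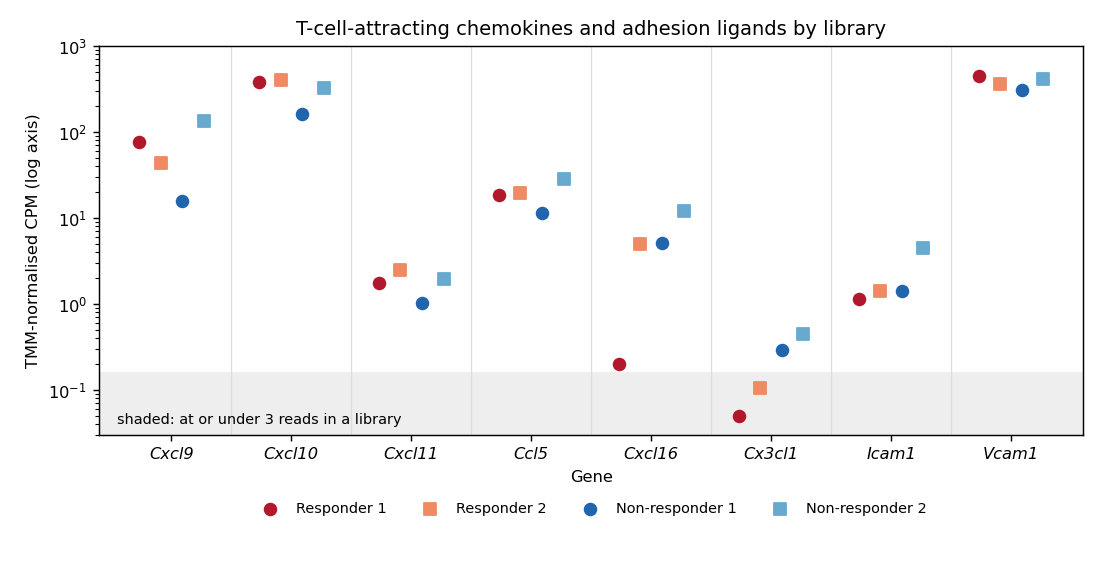
TMM-normalised CPM of each gene (log axis) in the 2 responder and 2 non-responder libraries, 1 point per library, with the range at or under 3 reads shaded. Cxcl10 and Vcam1 stand between 161 and 440 CPM in every library, while Cxcl16 runs from 0.20 to 12.0 CPM.

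Cxcl10 had 380 and 404 CPM in the responder libraries, against 161 and 323 CPM in the non-responder libraries. Both responder values lay above both non-responder values, and the low value was that of non-responder replicate 1. Its log2 fold change, responder relative to non-responder, was 0.69 (SE 0.32, 95% interval -0.07 to 1.46), with an adjusted p = 0.796 in edgeR's quasi-likelihood test over all genes tested. The distance between the groups rested on non-responder replicate 1: without it the log2 fold change was 0.28, and without non-responder replicate 2 the log2 fold change was 1.28.

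Cxcl9 had 76.3 and 43.3 CPM in the responder libraries, against 15.7 and 134 CPM in the non-responder libraries. The responder values lay between the 2 non-responder values, which differed 8.53-fold from each other. The log2 fold change was -0.33 (SE 1.19, 95% interval -4.08 to 3.42, edgeR adjusted p = 0.977), an interval too wide to show a difference of either sign. When non-responder replicate 2 was left out it became 1.92, when responder replicate 2 was left out 0.03, and when non-responder replicate 1 was left out -1.16. Against this, non-responder replicates differed more than 2-fold in the same direction in 7.93% of the genes tested.

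Cxcl11 was scarce, with 35 and 47 reads (1.73 and 2.46 CPM) in the responder libraries and 21 and 43 reads (1.01 and 1.93 CPM) in the non-responder libraries. The groups overlapped, and non-responder replicate 1 again had the least. Its log2 fold change of 0.51 (SE 0.48, edgeR adjusted p = 0.894) became 1.04 when non-responder replicate 2 was left out and 0.13 when non-responder replicate 1 was. C57BL/6 mice carry a frameshift in this gene and make no functional CXCL11 protein.

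Cxcl10 made up most of the CXCR3 ligand transcripts everywhere. Its share of the summed TPM of the 3 genes was 86.7% and 92.3% in responder replicates 1 and 2, against 92.9% and 76.1% in non-responder replicates 1 and 2. The sum itself was 723 and 705 TPM in the responder libraries, against 273 and 728 TPM in the non-responder libraries. The 2 responder libraries and non-responder replicate 2 therefore held like sums, and non-responder replicate 1 stood apart from its own group. Within a library, the ratio of Cxcl10 to Cxcl11 TPM was steady, at 369 and 277 in responder and 268 and 282 in non-responder libraries. The ratio of Cxcl10 to Cxcl9 TPM was not, at 6.66 and 12.5 in responder and 13.7 and 3.22 in non-responder libraries.

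**Figure D2:**
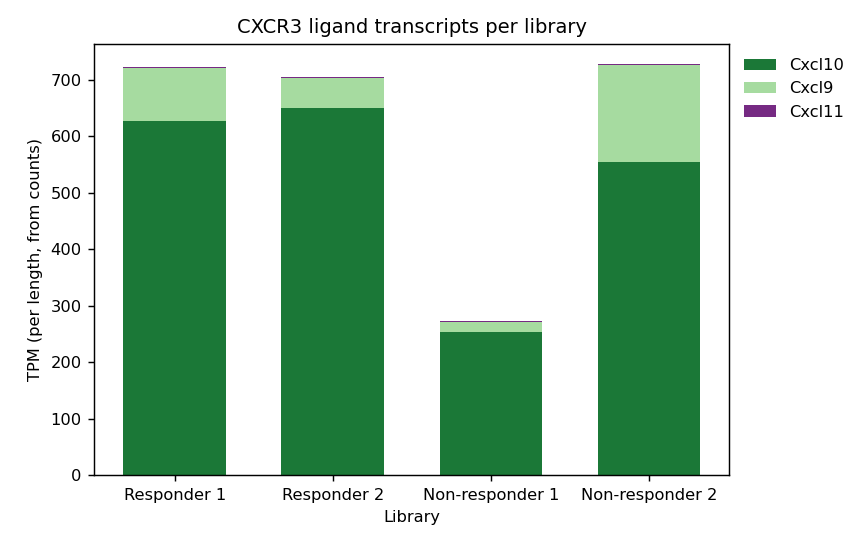
Stacked TPM (linear axis from 0) of Cxcl10, Cxcl9 and Cxcl11 in each library, responder libraries on the left. The summed bars reach 723 and 705 TPM in responder libraries and 273 and 728 TPM in non-responder libraries, and the Cxcl9 part is widest in non-responder replicate 2.

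Ccl5 had 18.3 and 19.5 CPM in the responder libraries, against 11.4 and 28.5 CPM in the non-responder libraries. The responder values were nearly equal and lay between the non-responder values. The log2 fold change was -0.08 (SE 0.42, 95% interval -1.13 to 0.97, edgeR adjusted p = 0.984), and it became 0.72 when non-responder replicate 2 was left out and -0.59 when non-responder replicate 1 was. In responder replicate 1, all 10 T and NK cell markers were at or under 3 reads, 5 of them at 0, while Ccl5 had 369 reads.

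Cxcl16 had 0.20 and 4.97 CPM in the responder libraries, against 5.02 and 12.0 CPM in the non-responder libraries. The groups did not overlap, yet responder replicate 2 and non-responder replicate 1 were almost equal, and responder replicate 1 held only 4 reads. The log2 fold change was -1.73 (SE 1.41, 95% interval -5.79 to 2.34, edgeR adjusted p = 0.888). Without responder replicate 2 it was -5.38, and without responder replicate 1 it was -0.78.

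Cxcl16 followed the leukocyte markers from library to library. Its ratio to the summed CPM of the 8 pan-leukocyte markers was 0.087 and 0.13 in the responder libraries and 0.13 and 0.10 in the non-responder libraries, a span of 1.51-fold, although the sum itself spanned 50.3-fold. Its ratio to Fcer1g, which encodes the common gamma chain of leukocyte Fc receptors, was 1.00 and 0.97 in responder and 0.93 and 1.00 in non-responder libraries. In responder replicate 1 both genes had only 4 reads, and the 95% counting interval of Cxcl16 there was 0.054 to 0.51 CPM. Of 9734 named genes with a mean of at least 5 CPM, Fcer1g had the profile nearest to Cxcl16 over the 4 libraries, at a distance of 0.076 between mean-centred log2(CPM + 1) profiles, followed by Plek (0.21) and Nckap1l (0.22). Fcer1g is itself 1 of the 8 markers in that sum. It was named for its nearness to Cxcl16, so the steady ratio to it is no separate evidence. The part of leukocyte transcripts in the Cxcl16 difference was not tested.

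Cx3cl1 was at the limit of detection, with 1 and 2 reads in the responder libraries and 6 and 10 reads in the non-responder libraries. Summed over libraries these are 3 reads against 16, a responder to non-responder ratio of 0.21 (95% interval 0.038 to 0.72, exact, counting error only). This interval pools reads and leaves out the variation between libraries, which exceeded counting error (chi-square per degree of freedom 24.7 to 74 between pairs of libraries). The gene was too low for the main test over all genes. With no low-count filter its log2 fold change was -2.19 (SE 0.97, edgeR adjusted p = 0.617).

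Vcam1 had 440 and 364 CPM in the responder libraries, against 302 and 406 CPM in the non-responder libraries. The groups overlapped, and the whole range was 1.46-fold. The log2 fold change was 0.18 (SE 0.23, 95% interval -0.34 to 0.71, edgeR adjusted p = 0.924), the narrowest interval among the 7 tested genes, and it was -0.01 without non-responder replicate 1.

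Icam1 had 1.14 and 1.41 CPM in the responder libraries, against 1.40 and 4.39 CPM in the non-responder libraries. These were 23 and 27 reads against 29 and 98 reads, and 3 of the 4 libraries were alike while non-responder replicate 2 was high. The log2 fold change was -1.18 (SE 0.58, 95% interval -2.52 to 0.16, edgeR adjusted p = 0.796), and it was -0.14 without non-responder replicate 2. That library also had the highest pan-leukocyte sum, 115 CPM, and the part of those transcripts in the Icam1 value was not tested. Per length, Vcam1 exceeded Icam1 by 190-fold and 127-fold in the responder libraries and by 106-fold and 45.4-fold in the non-responder libraries.

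None of the 7 tested genes passed an adjusted p of 0.05, where 0.0% of all genes tested did (0 of 13792). At an unadjusted p under 0.05, edgeR had 0 of these 7 and 856 of all genes tested (6.21%). DESeq2 called 62 genes (0.45%) and limma-voom 0, and neither called any gene of the set. Below an unadjusted p of 0.05, DESeq2 had 1 of the set (Cxcl10) and 736 of all genes tested (5.34%), and limma-voom had 2 (Cxcl10 and Cxcl16) and 916 of all genes tested (6.64%). The groups did not overlap for Cxcl10, higher in responders, and for Cxcl16, lower in responders, which is 2 of 7. Of all genes tested the groups did not overlap for 36.5%, with 18.8% higher and 17.7% lower in responders. The median log2 fold change of the 7 was -0.08, with 3 above and 4 below 0, and that of all genes tested was -0.01. Non-responder replicate 1 was the lowest library for 5 of the 7, Cxcl9, Cxcl10, Cxcl11, Ccl5 and Vcam1, and for 33.3% of all genes tested. Non-responder replicate 2 was the highest for 4 of the 7, Cxcl9, Ccl5, Cxcl16 and Icam1, and for 26.4% of all genes tested.

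**Figure D3:**
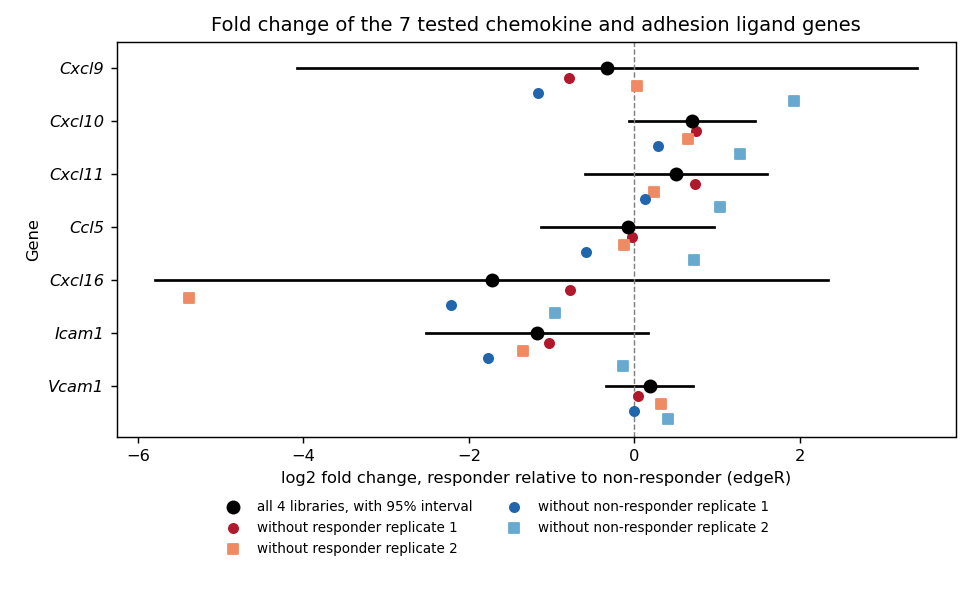
Log2 fold change of the 7 tested genes, responder relative to non-responder, from edgeR with all 4 libraries (black, with the 95% interval) and with each library left out (coloured). The interval of every gene spans 0, and the points without non-responder replicate 2 lie farthest right for Cxcl9, Cxcl10, Cxcl11, Ccl5, Icam1 and Vcam1.

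The 7 tested genes fell into 3 patterns against the markers of other cells. Cxcl16 moved with the leukocyte markers, as given above. Cxcl9, Cxcl10, Cxcl11, Ccl5 and Vcam1 kept no such steady ratio. Over the 4 libraries their ratios to the pan-leukocyte sum spanned 81.1-fold, 59.2-fold, 45.3-fold, 32.3-fold and 54.6-fold. In responder replicate 1, where that sum was 2.28 CPM, the ratios were 33.5, 166, 0.76, 8.02 and 193. Each ratio was highest there, but so were those of Icam1 and Cx3cl1, so this alone sets no gene apart. Cxcl9 and Ccl5 were highest in CPM in non-responder replicate 2, as was the sum. Cxcl9 stood at 76.3 CPM in responder replicate 1, where 7 of the 10 macrophage and monocyte markers were under 1 CPM. The others there were Cd68 at 9.47 CPM, Cd14 at 1.69 CPM and C1qa at 1.04 CPM. Cd68 was level, with 9.47 and 9.21 CPM in responder and 9.13 and 10.0 CPM in non-responder libraries. The source of the Cxcl9 reads was not tested. Icam1 had ratios to the sum of 0.036 in responder replicate 2 and of 0.037 and 0.038 in the non-responder libraries, but of 0.50 in responder replicate 1. Endothelial markers, of which Cldn5 and Tie1 had no read in either responder library, summed to 12.8 and 15.5 CPM in responder and 24.8 and 28.1 CPM in non-responder libraries. That difference was in Pecam1, which leukocytes also express, while the endothelial cadherin gene Cdh5 had 5.95 and 3.51 CPM in responder and 5.51 and 2.15 CPM in non-responder libraries. Fibroblast markers summed to 8472 and 7384 CPM in responder and 9792 and 16164 CPM in non-responder libraries. Most of each sum was Col3a1, at 6897 and 5792 CPM in responder and 7598 and 13391 CPM in non-responder libraries. Whether these transcripts came from the tumor cells or from other cells was not tested, nor was their part in the Vcam1 level. Dendritic cell markers summed to 9.76 to 10.6 CPM in the 4 libraries, most of it Zbtb46.

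**Figure D4:**
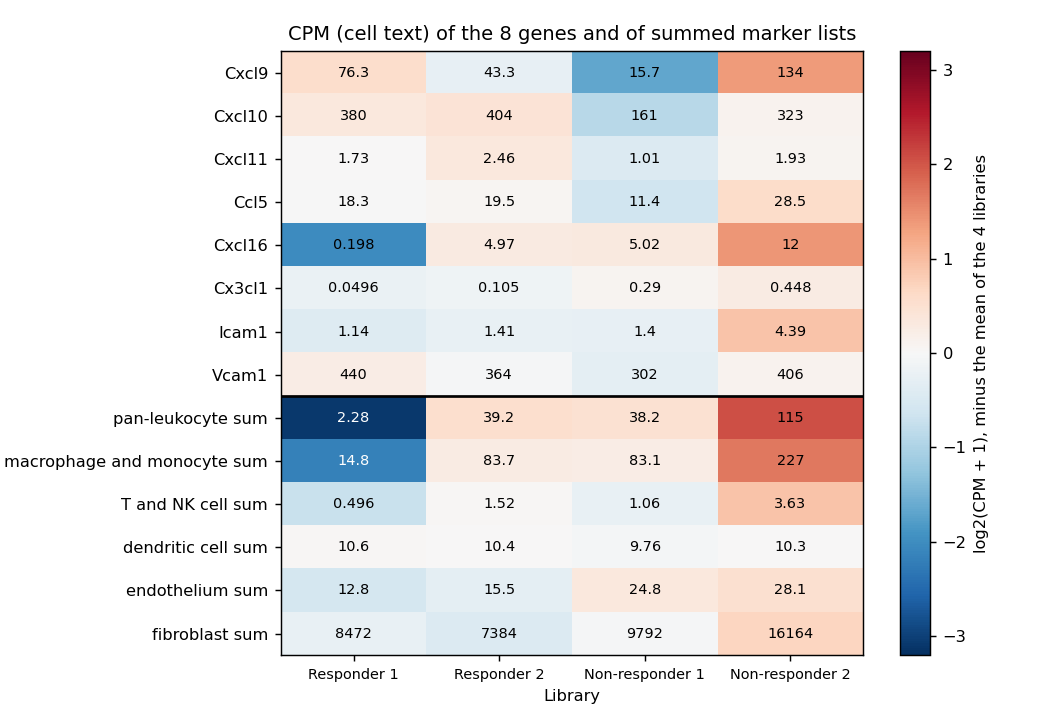
Heat map of the 8 genes and of 6 summed marker lists in each library, coloured by log2(CPM + 1) minus the mean of the 4 libraries, with the CPM written in each cell. Cxcl16 shares the colour pattern of the pan-leukocyte and macrophage sums, lowest in responder replicate 1 and highest in non-responder replicate 2, while Cxcl10 is lowest in non-responder replicate 1.

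The profiles nearest to the other genes gave different neighbours. Cxcl10 lay nearest to Gbp7, an interferon-inducible guanylate-binding protein gene, which had 520 and 558 CPM in responder and 231 and 430 CPM in non-responder libraries (distance 0.077), and next to Apol9b (0.093) and Capn6 (0.13). Cxcl9 had no close neighbour among genes of at least 5 CPM: the nearest were Serping1, the C1 inhibitor gene (0.45), C4b, a complement component gene (0.62), and Scara5, a scavenger receptor gene (0.64). Ccl5 lay nearest to Nnmt, nicotinamide N-methyltransferase (0.095), Icam1 to the water channel gene Aqp1 (0.097) and Vcam1 to Mtm1, a phosphoinositide phosphatase gene (0.030). Cxcl11 lay nearest to Ndufaf8 (0.032), Rnaseh2c (0.033) and Map2k3 (0.033). Among themselves, Cxcl10 and Cxcl11 were 0.57 apart, Cxcl11 and Vcam1 0.47, and Cxcl9 was at least 1.42 from each of the others. These distances are descriptions over 4 libraries, and profiles of genes that change little are near to many others. The 1 added to each CPM also flattens the profiles of scarce genes such as Cxcl11 and Icam1. Cxcl11 spanned 2.43-fold and Cxcl10 2.51-fold over the libraries, yet their profiles ran from -0.44 to 0.34 and from -0.89 to 0.43. Distances that involve Cxcl11 or Icam1 therefore partly reflect their low level.

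The receptors of these ligands were low in the sorted cells, apart from the integrin chain Itgb1. Cxcr3 had 1 read over the 4 libraries together, and Cxcr6 had 7 reads or fewer in each. Cx3cr1, the fractalkine receptor gene, had 0.64 and 3.87 CPM in responder and 4.49 and 13.6 CPM in non-responder libraries. Itgb1, the beta chain of VLA-4, was abundant at 1399 and 1082 CPM in responder and 1698 and 1228 CPM in non-responder libraries, whereas Itga4, its alpha chain, had 0.15 and 1.83 CPM in responder and 1.69 and 4.44 CPM in non-responder libraries. Of 13 receptor and integrin genes, 9 were tested, none passed in either direction, and the median log2 fold change was -1.62, with the same uneven leukocyte sums beside it. Without responder replicate 2, the log2 fold changes of Ccr1, Cx3cr1, Itga4 and Itgam were -4.32, -3.80, -4.31 and -5.30. Itgb7 went the other way, with 8.43 and 4.29 CPM in responder and 1.06 and 3.32 CPM in non-responder libraries (log2 fold change 1.53, SE 0.59, edgeR adjusted p = 0.766). The log2 fold change of Itgb7 was 2.57 without non-responder replicate 2. With no low-count filter Itgb7 passed, as did 212 of 29612 genes.

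Other lymphocyte chemokines were scarce, apart from Ccl25. Of 14 such genes, Ccl17, Ccl19, Ccl20 and Ccl21a had no read in any library, 4 were tested and none passed. Ccl25, a chemokine of the gut and thymus, was the only one above 5 CPM on average, with 19.7 and 24.2 CPM in responder and 18.8 and 16.8 CPM in non-responder libraries. Ccl3 and Ccl4, chemokines of the same family as CCL5, had 0.05 and 0.52 CPM and 0.05 and 1.05 CPM in responder libraries, against 0.92 and 1.70 CPM and 1.21 and 2.11 CPM in non-responder libraries. The log2 fold change of Ccl4 was -1.60 with all libraries and -4.91 without responder replicate 2.

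Among 12 other adhesion ligand genes, 6 were tested and none passed. The sialomucin gene Cd34 had 1210 and 1078 CPM in responder and 961 and 1247 CPM in non-responder libraries, and Alcam, a ligand of CD6 on T cells, had 39.9 and 42.9 CPM in responder and 53.3 and 40.9 CPM in non-responder libraries. Pecam1, found on endothelium and leukocytes, had 6.34 and 11.6 CPM in responder and 17.8 and 25.5 CPM in non-responder libraries (log2 fold change -1.27, SE 0.33, edgeR adjusted p = 0.631). Without responder replicate 2, the log2 fold changes of Pecam1 and F11r, a junctional adhesion molecule gene, were -1.77 and -3.52. With no low-count filter both genes passed, as did 212 of 29612 genes. Madcam1, Sele and Icam4 had no read in any library.

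Transcripts of the proteases that cut these ligands were present in the sorted cells, apart from those of Dpp4, which were barely detected. Adam10 had 154 and 121 CPM in responder and 190 and 169 CPM in non-responder libraries, and Adam17 had 377 and 288 CPM in responder and 408 and 361 CPM in non-responder libraries. Mmp9, a gelatinase that can cut CXCR3 ligands, had 183 and 289 CPM in responder and 341 and 396 CPM in non-responder libraries (log2 fold change -0.64, SE 0.25, edgeR adjusted p = 0.766). Dpp4, which trims CXCL10, had 5 reads or fewer in every library. Ctss had 1.49 and 35.8 CPM in responder and 24.8 and 92.2 CPM in non-responder libraries (log2 fold change -1.65, SE 1.85). Of the 5 protease genes 4 were tested, all 4 had log2 fold changes below 0, at a median of -0.51, and none passed. Of all 13792 genes tested, 7044 had log2 fold changes below 0.

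Stat2 and Irf9, which carry type I interferon signals to the nucleus, were lowest in the same library as Cxcl10. Stat2 had 249 and 272 CPM in responder and 115 and 278 CPM in non-responder libraries, and Irf9 had 67.2 and 80.7 CPM in responder and 36.4 and 73.4 CPM in non-responder libraries. The receptor gene Ifngr2 did not show it, at 60.0 and 58.4 CPM in responder and 61.0 and 62.6 CPM in non-responder libraries, nor did the kinase gene Jak2, at 71.1 and 59.6 CPM in responder and 78.7 and 71.2 CPM in non-responder libraries. Of 10 genes in the interferon gamma list, all tested, none passed, the median log2 fold change was -0.08 and 4 were lowest in non-responder replicate 1. Of 7 genes in the type I interferon list, none passed, the median was 0.05 and 5 were lowest in that library. The log2 fold changes of Stat2, Irf9, Socs1 and Socs3 were 0.41, 0.43, 0.63 and 0.52 with all libraries. Without non-responder replicate 2 they were 1.18, 1.02, 1.49 and 1.01. That of Irf8, a factor of myeloid cells, was -1.39 with all libraries and -3.62 without responder replicate 2.

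Genes of the NF-kB pathway had log2 fold changes from -0.45 to 0.95. Rela had 96.4 and 99.2 CPM in responder and 93.6 and 84.8 CPM in non-responder libraries, and Nfkb1 had 184 and 169 CPM in responder and 145 and 154 CPM in non-responder libraries. Nfkbia, the NF-kB inhibitor gene, had 199 and 255 CPM in responder and 110 and 125 CPM in non-responder libraries (log2 fold change 0.95, SE 0.20, edgeR adjusted p = 0.43). DESeq2 called Nfkbia among 62 of 13792 genes, and edgeR with no low-count filter among 212 of 29612. Its log2 fold change without non-responder replicate 2 was 1.05. Of 14 genes in this list, all tested, none passed in edgeR with all libraries, the median log2 fold change was 0.06 and 7 were lowest in non-responder replicate 1.

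**Figure D5:**
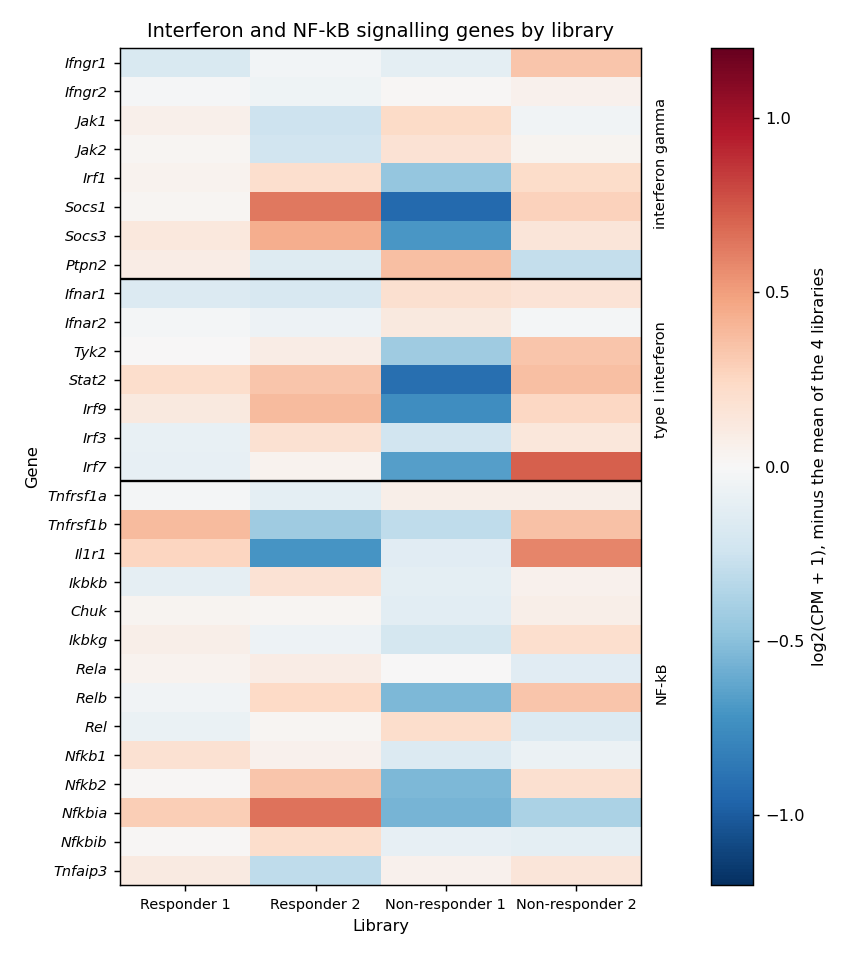
Heat map of 29 interferon gamma, type I interferon and NF-kB pathway genes with a mean of at least 5 CPM, 1 other of the 30 not being shown, coloured by log2(CPM + 1) minus the mean of the 4 libraries. Stat2, Irf9, Socs1 and Socs3 are lowest in non-responder replicate 1, where Stat2 had 115 CPM.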

How the data were processed

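Per the labels' protocols, RNA from sorted tumor cells was captured on oligo-dT beads and made into strand-specific libraries. The submitters' processing notes name STAR and mm10 (GRCm38), the STAR version being not given in the sources used here. Counting per gene used featureCounts 1.6.1 in its reverse-stranded setting on Ensembl release 91, per the file headers, and multi-mapping reads were not requested. The deposited values are raw counts, 1 file per library.

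Symbols were matched for 53274 of 53379 identifiers. The counts were fitted with edgeR 4.0.16 (R 4.3.3) with group as the only term: filterByExpr with a minimum count of 10, TMM factors (0.952 to 1.036), a robust quasi-likelihood test, and adjustment by Benjamini-Hochberg across the 13792 genes kept, at 0.05. The biological coefficient of variation was 21.6%. The SE is the size of the log2 fold change over the square root of F. CPM are TMM-normalised. TPM were computed from counts and exon lengths. Intervals on reads cover counting error only. No libraries were near-identical (chi-square per degree of freedom 24.7 to 74). The code was tested on simulated data.

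The members and lists were chosen with earlier results of these data known. Text named all 8 genes, list genes, mostly of at least 5 CPM on average, and the nearest profiles (mean-centred log2(CPM + 1), Euclidean distance). Some genes of the lists are counted but not reported here by name. Scarcer list genes were picked by name with values in view. Alternatives were RLE, upper-quartile and no factors, DESeq2 1.42.0, limma-voom (limma 3.58.1), no filter, 5 CPM in 2 libraries, a replicate block, and each library left out, where a lone library is taken to vary as the other group does.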

Additional observations from a re-analysis of the deposited data

How the results depend on the processing

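Genes called over the whole table numbered 0 in edgeR with all libraries, 62 in DESeq2, 212 with no low-count filter and 41 to 516 with 1 library left out. Members called numbered 0 to 1 with 1 library left out, and genes of the other lists 0, with 1 in DESeq2 (Nfkbia), 5 with no filter (F11r, Ccr1, Pecam1, Nfkbia and Itgb7) and 0 to 9 with 1 library left out. With 1 library left out, a group holds a lone library, so only fold changes are given. Cxcl10 reached 1.28 without non-responder replicate 2, and Cxcl16 reached -5.38 without responder replicate 2. The fit with the replicate number as a block called 32 genes and 0 members, while the libraries share only a number (deviations of same-numbered libraries correlated at 0.388 over genes, with 2 pairs). The sign of Cxcl9 (-0.33) turned to 0.32 in limma-voom and 0.27 with the replicate block, and leaving out 1 library gave -1.16 to 1.92. That of Ccl5 (-0.08) turned to 0.053 in limma-voom and 0.052 with the replicate block, and leaving out 1 library gave -0.59 to 0.72. That of Vcam1 was -0.0090 to 0.41 with 1 library left out. The cause of these turns was not tested. Of 61 values of the 7 tested genes under other settings with all libraries, 57 kept their direction. Those with a test also kept their side of the threshold, while the plain log2 ratios of mean CPM among them had no test. No scaling moved the median of all genes by over 0.1.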
